A study of Mus musculus with 2 samples.

Results

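The genes described here are 54 genes that cells express in the G2 phase and in mitosis, measured in mouse bone marrow-derived macrophages with and without calpain-6. They were chosen by name for their role in cell division, with earlier results of these data known. They were found on the array through the RefSeq accession of each probe. All 54 are on the array, with 73 probes among them, of 20656 named genes in all. Of the 54, 47 were well above background on both arrays, through 61 probes, and 12872 genes were so in the whole series. The other 7 are given as single signals or bounds.

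Gene expression was measured in Capn6-Ko macrophages, which are calpain-6-deficient, and in Capn6-Wt macrophages, which carry the wild-type gene, with 1 array for each. How the deficiency was made, the strain and the age of the mice are not given in the sources used here. Both cultures were femoral marrow of male mice, grown with 10% serum, 50 ng/mL of the macrophage growth factor M-CSF and 10 ng/mL of the inflammatory cytokine TNF-α, with unbound cells washed away. Day 3 and day 4 of culture both stand in the labels, in different fields, and the design text gives 4 mice whose cells were pooled, without saying how they were divided between the groups. With 1 pooled array per group there is no replicate, so the differences carry no test and no p-value. Precision is limited by the number of arrays.

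Macrophages grown from marrow in M-CSF still divide, and the genes of this set are switched on late in each division cycle. Cyclin B bound to the kinase Cdk1 drives a cell into mitosis. The spindle checkpoint then keeps sister chromatids joined until every kinetochore is attached to microtubules, after which the anaphase-promoting complex has securin and the cyclins destroyed and the cell divides. Many of these genes share a way of being switched on, through the factors B-Myb and FoxM1 on the MuvB complex, which reads the cell cycle homology region of their promoters, and through NF-Y, which reads CCAAT boxes.

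The arrays themselves were alike. The processed signal, which is the background-subtracted brightness of a spot, had a 75th percentile of 372 on the Capn6-Ko array and 377 on the Capn6-Wt array, and 52.8% and 51.7% of spots were well above background. The targeted gene does not check the labels, because the single Capn6 probe read 8.65 on the Capn6-Ko array and 3.93 on the Capn6-Wt array and was not well above background on either. The macrophage label was borne out by Lyz2, the lysozyme of these cells, with a signal of 164586 in Capn6-Ko and 167573 in Capn6-Wt, and by Adgre1, which encodes F4/80, with 18733 and 16635. Of 10 listed macrophage markers 9 were measured and 7 of them were higher in Capn6-Ko, where 47.8% of all measured genes were. Genes of stromal cells were present as well, and 12 of 13 measured stromal markers were lower in Capn6-Ko.

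Most of the mitotic genes were slightly higher in Capn6-Ko macrophages. Of the 47 measured genes 39 (83.0%) had a difference above 0, where 47.8% of all 12872 measured genes did. A difference is the log2 level in Capn6-Ko minus that in Capn6-Wt, each relative to the 75th percentile of its array and averaged over the measured probes of a gene. The median difference of the 47 genes was 0.11, or 1.08-fold, beside -0.0055 over all measured genes. The middle of the set was narrow, with quartiles at 0.048 and 0.18, and the extremes were Kif23 at 0.42 and Pttg1 at -0.19. More dividing cells and more of these RNAs per dividing cell cannot be told apart in such pooled RNA.

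The shift was small for each gene. The size used to count single genes was a signal at least 25% higher in Capn6-Ko, or, for the same ratio turned round, at least 20% lower. Higher by that size were 2 of the 47 genes (4.26%), Kif23 and Top2a, where 2.64% of all measured genes were, and none was lower by it, where 5.53% were. At this size the share of higher genes is near that of all genes. Higher by 1.1-fold or more were 19 of the 47 (40.4%), where 12.4% of all measured genes were, and 2 were lower by as much, where 15.1% were. Those were Pttg1 and, by the mean of 2 dim probes of opposite sign, Kif2c. The ± after a difference is the SD expected from the spread between spots of the same probe. It covers spotting and scanning only, and not mice, culture, RNA extraction or labelling. Higher by more than 2 of these spot SDs were 12 of the 47 genes (25.5%), beside 5.24% of all measured genes, and none was lower by as much, beside 6.44%. The difference lay within 1 spot SD of 0 for 20 of the 47.

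**Figure D1:**
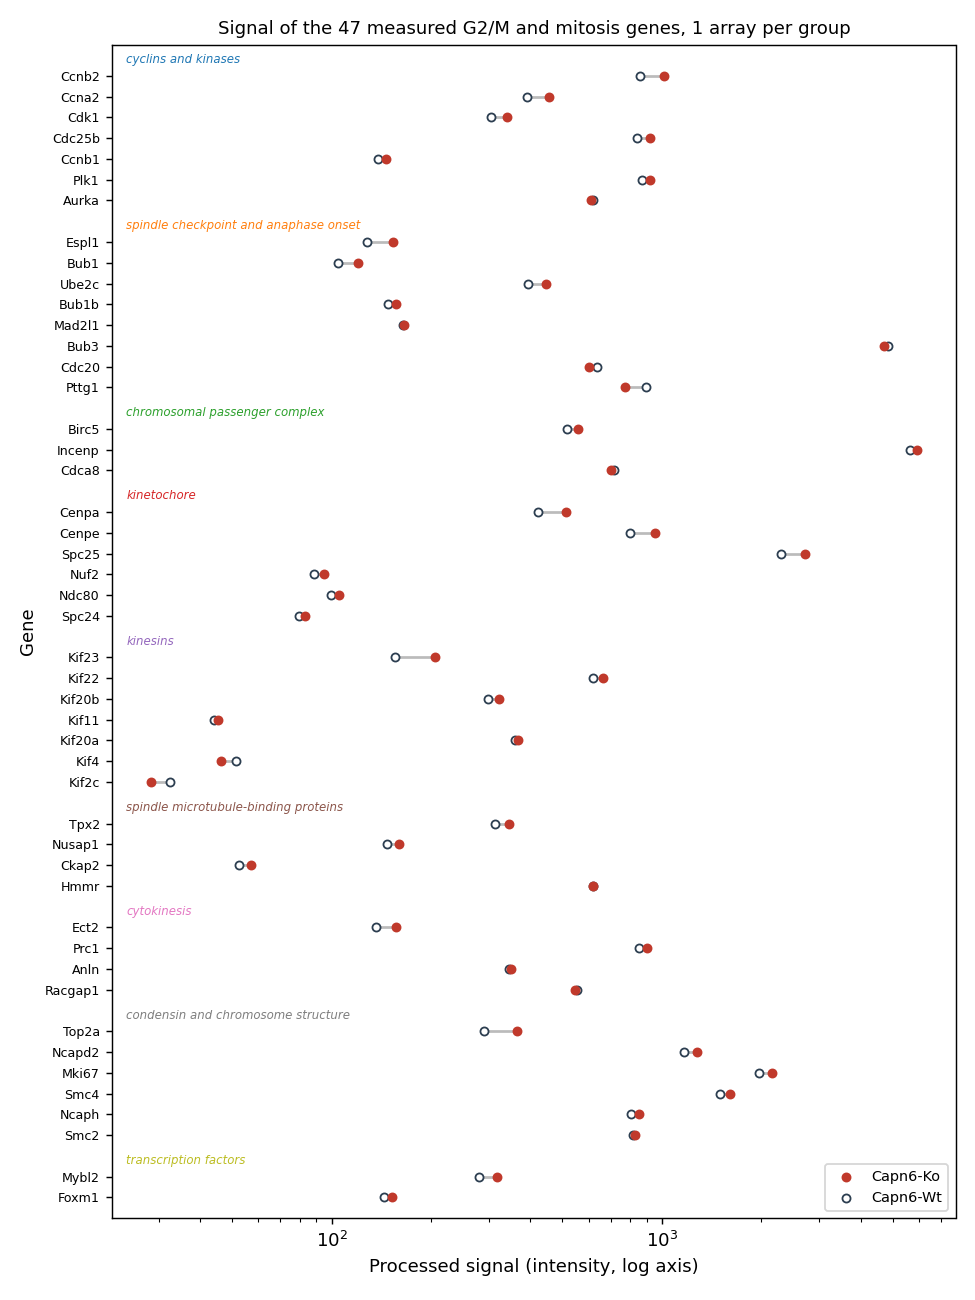
Processed signal (horizontal log axis) of each of the 47 measured genes (vertical axis, grouped by role) on the Capn6-Ko array (filled red) and the Capn6-Wt array (open), 1 array each, as the geometric mean over the measured probes of a gene. The gaps are small beside the range of signals, and for 39 of the 47 genes the red point lies to the right.

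Bright and dim genes of the set had alike shares above 0. Of the 16 genes brighter than the median of all measured genes 13 were above 0, with a median difference of 0.11, where 48.5% of all genes that bright were above 0. Higher by 1.1-fold or more were 6 of these 16, where 6.68% of all bright genes were. Of the 31 dimmer genes 26 were above 0, also with a median of 0.11, where 47.1% of all dim genes were. Higher by 1.1-fold or more were 13 of these 31, where 18.1% of all dim genes were. With all measured genes cut into 4 equal bands of level, from dim to bright, 6 of 8, 20 of 23, 12 of 14 and 1 of 2 mitotic genes were above 0. Probe by probe, 51 of the 61 measured probes were above 0, with a median of 0.098.

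**Figure D2:**
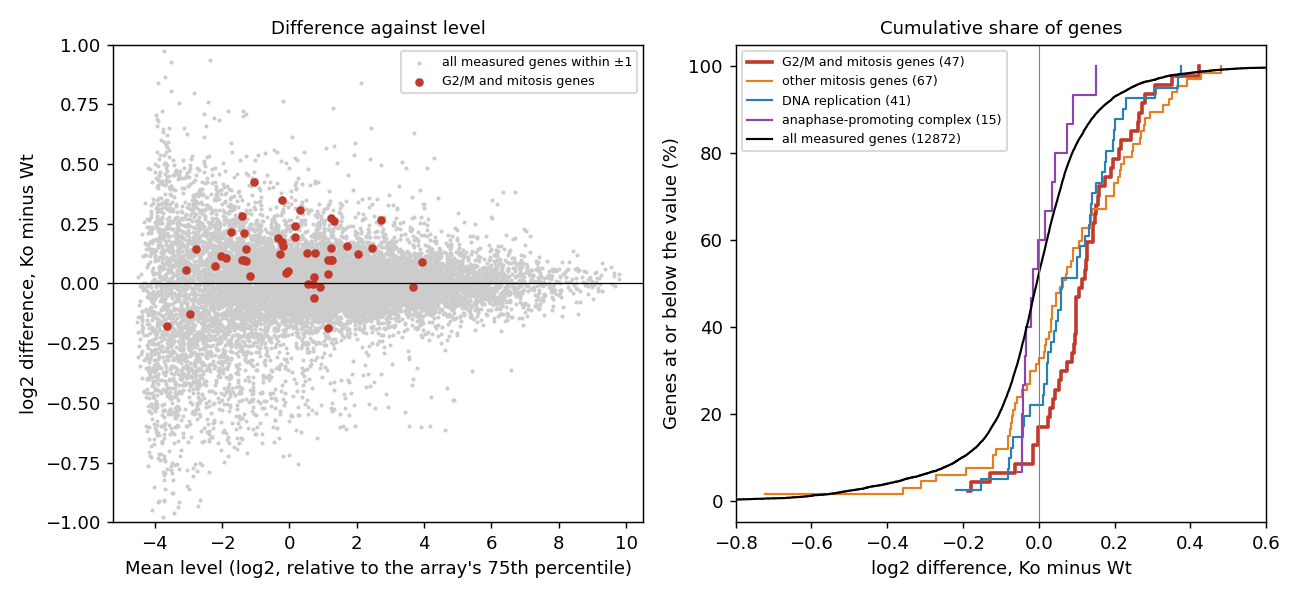
Left, log2 difference of each gene (Capn6-Ko minus Capn6-Wt) against its mean log2 level, with the 47 mitotic genes in red over the measured genes in grey. Differences over all measured genes ran from -1.43 to 1.71, and the grey points with the largest ones are left out. Right, the cumulative share of genes by difference, where the mitotic genes (red, median 0.11) lie to the right of all measured genes (black, median -0.0055) and the anaphase-promoting complex (purple, median -0.014) does not.

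Promoter sequences show what the set shares beside its expression. RefSeq promoter windows of the build GRCm38.p6, each from 250 bases before to 50 bases after a gene start, were found for 45 of the 54 genes as 48 windows. The windows of the 3 genes with the highest differences among those brighter than the median, and of the lowest such gene, are printed 5′ to 3′ on the gene's strand. Capitals mark the letters CCAAT, which NF-Y reads, and TTTGAA or TTTAAA, forms of the cell cycle homology region. Cenpe lies at chr3:135212313-135212612 on the plus strand. The others lie on the minus strand, Spc25 at chr2:69206164-69206463, Ccnb2 at chr9:70421505-70421804 and Pttg1 at chr11:43425932-43426231.
Cenpe: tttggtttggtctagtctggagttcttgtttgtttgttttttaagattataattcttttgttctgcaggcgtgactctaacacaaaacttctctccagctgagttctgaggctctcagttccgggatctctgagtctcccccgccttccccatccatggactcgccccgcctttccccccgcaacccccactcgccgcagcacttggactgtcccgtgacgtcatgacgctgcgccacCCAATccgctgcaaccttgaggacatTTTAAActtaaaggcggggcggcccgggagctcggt
Spc25: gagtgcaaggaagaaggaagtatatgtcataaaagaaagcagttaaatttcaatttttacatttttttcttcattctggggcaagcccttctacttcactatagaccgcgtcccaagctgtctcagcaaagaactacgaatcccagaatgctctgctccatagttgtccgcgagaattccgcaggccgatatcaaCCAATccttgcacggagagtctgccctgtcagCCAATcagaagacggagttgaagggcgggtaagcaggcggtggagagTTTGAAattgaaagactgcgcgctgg
Ccnb2: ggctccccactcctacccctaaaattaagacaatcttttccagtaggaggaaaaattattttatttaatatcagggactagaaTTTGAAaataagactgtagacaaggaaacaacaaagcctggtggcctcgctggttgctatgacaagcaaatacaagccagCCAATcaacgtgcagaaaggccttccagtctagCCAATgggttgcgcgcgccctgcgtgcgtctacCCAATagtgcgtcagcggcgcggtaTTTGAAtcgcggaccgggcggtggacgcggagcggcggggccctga
Pttg1: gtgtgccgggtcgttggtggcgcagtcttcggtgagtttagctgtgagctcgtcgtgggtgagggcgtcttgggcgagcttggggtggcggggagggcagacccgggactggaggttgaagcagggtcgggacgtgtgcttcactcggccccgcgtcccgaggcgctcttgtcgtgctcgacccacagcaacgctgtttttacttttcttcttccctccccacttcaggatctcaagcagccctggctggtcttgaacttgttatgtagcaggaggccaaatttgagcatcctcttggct

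Cenpe encodes a kinesin that carries chromosomes along microtubules from the kinetochore, and its signal was 954.7 in Capn6-Ko and 800.6 in Capn6-Wt, a difference of 0.27 ± 0.093. Its window holds CCAAT once, beginning 12 bases before the start, and TTTAAA after the start. Spc25, a subunit of the Ndc80 complex that grips microtubules, had 2714 in Capn6-Ko and 2289.7 in Capn6-Wt, a difference of 0.26 ± 0.085. The Spc25 window holds CCAAT 2 times, with first letters 32 bases apart, followed by TTTGAA. Ccnb2, one of the B cyclins, had 1015 in Capn6-Ko and 856.6 in Capn6-Wt, a difference of 0.26 ± 0.079. In its window 3 CCAAT boxes lie in a row with first letters 33 bases apart each time, and TTTGAA follows 5 bases after the start, with a second TTTGAA further upstream. Pttg1 encodes securin, and none of the 6 searched motifs is in its window.

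Across the set, TTTGAA stood in 36 of 48 windows (75%), counting both strands, where 17.9% of all 32851 promoter windows of the same length hold it. It began within 50 bases of the gene start in 31 of the 48 (64.6%), against 4.94% of all windows. CCAAT stood in 35 of the 48 (72.9%), against 37.4% of all windows, and stood there at least 2 times in 22 (45.8%), against 11.7%. CCAAT shares were also high in further mitosis genes outside the set, at 64.7% for 1 box and 36.8% for at least 2, and in DNA replication genes, at 61.5% and 38.5%, and the differences between lists were not tested. CCAAT and TTTGAA were together in 31 windows (64.6%), against 6.95%. In the further mitosis genes the pair was in 30.9% of windows and TTTGAA in 45.6%, and in DNA replication genes they were in 7.69% and 10.3%. TTCGAA was found in 4 windows (8.33%, against 1.56%) and TTTAAA in 9 (18.8%, against 13.2%). The E2F site TTTCGCGC stood in 1 window (2.08%) and TTTGGCGC in 3 (6.25%), against 0.323% and 0.514% of all windows. DNA replication genes held them more often, in 17.9% and 12.8% of windows, and the further mitosis genes in 0% and 2.94%. No 2 of these motifs are the same letters, and TTCGAA and TTTAAA read alike on both strands. The median difference was 0.11 over 29 measured genes with TTTGAA in a window and 0.13 over 11 without it, and 0.14 with CCAAT and 0.11 without it. A match is a description of the letters and not a site.

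The counts by role given from here on stand beside 47.8% of all measured genes above 0, and groups this small were not tested. Cyclins and kinases that start mitosis were higher in 6 of 7 measured genes, none by 25%, with a median of 0.15. After Ccnb2, the highest was Ccna2, the cyclin of S and G2 phase, with a signal of 454.9 in Capn6-Ko and 389.4 in Capn6-Wt, a difference of 0.24 ± 0.12. The mitotic kinase gene Cdk1 had 339 in Capn6-Ko and 304 in Capn6-Wt, a difference of 0.17 ± 0.12, and Cdc25b, a phosphatase that activates Cdk1, had 919.9 and 841.2, a difference of 0.15 ± 0.093. These steps exceeded 1 spot SD and, for Ccna2 and Ccnb2, 2 of them. The main mitotic cyclin gene Ccnb1 was at 0.099 ± 0.085 over 3 probes that ran from 0.0038 to 0.23, and its brightest probe, with 573 in Capn6-Ko and 579 in Capn6-Wt, gave the lowest of the 3. Plk1, the polo-like kinase, was at 0.098 ± 0.093. Aurka, the kinase of the spindle poles, had 608.8 in Capn6-Ko and 617.6 in Capn6-Wt, which is -0.0028 ± 0.093. After a background correction with an added offset Aurka was at 0.066. Cdc25c, a second Cdk1 phosphatase, had a signal of 23.3 in Capn6-Ko and 12.7 in Capn6-Wt. Only the Capn6-Ko reading was well above background, and the bound on its ratio to Capn6-Wt was 1.42-fold. The bound takes both readings as exact, while the spot SD of the difference was 0.33 for this dim single spot. For such a bound the Capn6-Wt side was taken as the signal of the probe itself or, if greater, as 16.6, the dimmest reading that passed as above background on that array.

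The spindle checkpoint and anaphase genes were the most mixed, with 5 of 8 measured genes above 0, beside 47.8% of all measured genes. Their median was 0.062, which became -0.014 with only probes brighter than the median. Espl1, the separase that cuts cohesin, had a signal of 153 in Capn6-Ko and 128 in Capn6-Wt, a difference of 0.28 ± 0.17. Bub1, a checkpoint kinase, was read by 10 spots on each array and has the most spots of any gene of the set. Its spots ran from 111 over a median of 120.3 to 134 in Capn6-Ko, and from 97.2 over 102 to 119 in Capn6-Wt. The spot ranges overlap, and the means differed by 0.22 ± 0.053. Ube2c, the ubiquitin-conjugating enzyme of the anaphase-promoting complex, was at 0.20 ± 0.074, with probe signals of 416 and 478 in Capn6-Ko against 362 and 429 in Capn6-Wt. The checkpoint genes Bub1b and Mad2l1 were at 0.093 ± 0.17 and 0.030 ± 0.084, the Mad2l1 value from 3 probes of both signs.

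On the lower side of the same group, Bub3, a checkpoint protein that also serves outside mitosis, had 4718 in Capn6-Ko and 4826 in Capn6-Wt, a difference of -0.014 ± 0.074. Its sign turned after the background correction with an offset (0.051). Cdc20, the activator that the checkpoint holds back, had 600.3 in Capn6-Ko and 635 in Capn6-Wt, a difference of -0.063 ± 0.093. Pttg1, the inhibitor of separase, was the lowest gene of the set at -0.19 ± 0.094. Its bright probe read 7281 in Capn6-Ko and 7880.0 in Capn6-Wt, a difference of -0.096, and its dim probe read 82.4 and 101, a difference of -0.28. The pair Espl1 and Pttg1, enzyme and inhibitor, thus had differences of opposite sign. Ttk, a checkpoint kinase, was not well above background on either array, with 12.6 on both.

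The chromosomal passenger complex, which places Aurora B on centromeres and later on the midzone, showed small values. Birc5, or survivin, had 3 probes from 0.077 to 0.22, the brightest with 3158 in Capn6-Ko and 2753 in Capn6-Wt, and a mean of 0.13 ± 0.074. Incenp, the scaffold, was at 0.088 ± 0.052, with probe signals of 7158 and 4908 in Capn6-Ko against 6592 and 4837 in Capn6-Wt. Cdca8, or borealin, was at -0.015 ± 0.072, from a bright probe with 1829 in Capn6-Ko and 1824 in Capn6-Wt (0.022) and a dim one with 268 and 282 (-0.053). The kinase of the complex, Aurkb, read 5.35 in Capn6-Ko and 4.23 in Capn6-Wt and was not well above background on either.

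All 6 measured kinetochore genes were above 0, beside 47.8% of all measured genes, with a median of 0.19. Cenpa, the histone variant that marks the centromere, had a signal of 514 in Capn6-Ko and 421 in Capn6-Wt, a difference of 0.31 ± 0.093, or 1.24-fold. With Cenpe and Spc25, described with their promoters, it made up the 3 kinetochore genes that exceeded 2 spot SDs. Of all measured genes 5.24% were higher by as much. The other subunits of the Ndc80 complex were dimmer and closer to 0. Nuf2 had 94.7 in Capn6-Ko and 88.6 in Capn6-Wt (0.11 ± 0.17), Ndc80 itself 106 and 99.4 (0.11 ± 0.17), and Spc24 83.1 and 79.9 (0.074 ± 0.17). The sign turned for Spc24 after the background correction with an offset (-0.030), and for Nuf2 with no filter on dim probes (-0.032), which adds a probe below background. Cenpf, a large protein of the outer kinetochore, was not well above background, with 6.06 in Capn6-Ko and 4.48 in Capn6-Wt.

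Among the kinesins 5 of 7 measured genes were above 0, with a median of 0.058. Kif23, the motor of the centralspindlin complex that builds the midzone for cytokinesis, had the largest difference of the set, with 206 in Capn6-Ko and 156 in Capn6-Wt, or 0.42 ± 0.12 and 1.34-fold. After a background correction with an added offset it was 0.26, short of 25% higher. Kif22, a chromokinesin, was at 0.13 ± 0.093, with 665 in Capn6-Ko and 616 in Capn6-Wt, and Kif20b was at 0.12 ± 0.12. Kif11, the motor that separates the spindle poles, and Kif20a, a motor of the midzone, were within 1 spot SD of 0, at 0.058 ± 0.33 and 0.053 ± 0.12. Kif4, a chromokinesin, had 46.3 in Capn6-Ko and 51.3 in Capn6-Wt, a difference of -0.13 ± 0.33. Kif2c, which depolymerises microtubules at the centromere, had a mean of -0.18 ± 0.23 over 2 dim probes that disagree. One read 25.1 in Capn6-Ko and 41.8 in Capn6-Wt, a difference of -0.72, and the other 32.1 and 25.3, a difference of 0.36, so no direction can be given for Kif2c. Kif18a, which dampens chromosome movements, and Kif15 were well above background in Capn6-Ko only. Kif18a had 26.0 in Capn6-Ko and 17.6 in Capn6-Wt (a bound of 1.5-fold), and Kif15 had 20.1 and 16.2 (a bound of 1.23-fold). Both passed only on the array where they were brighter, and the bounds leave out a spot SD of 0.33.

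**Figure D3:**
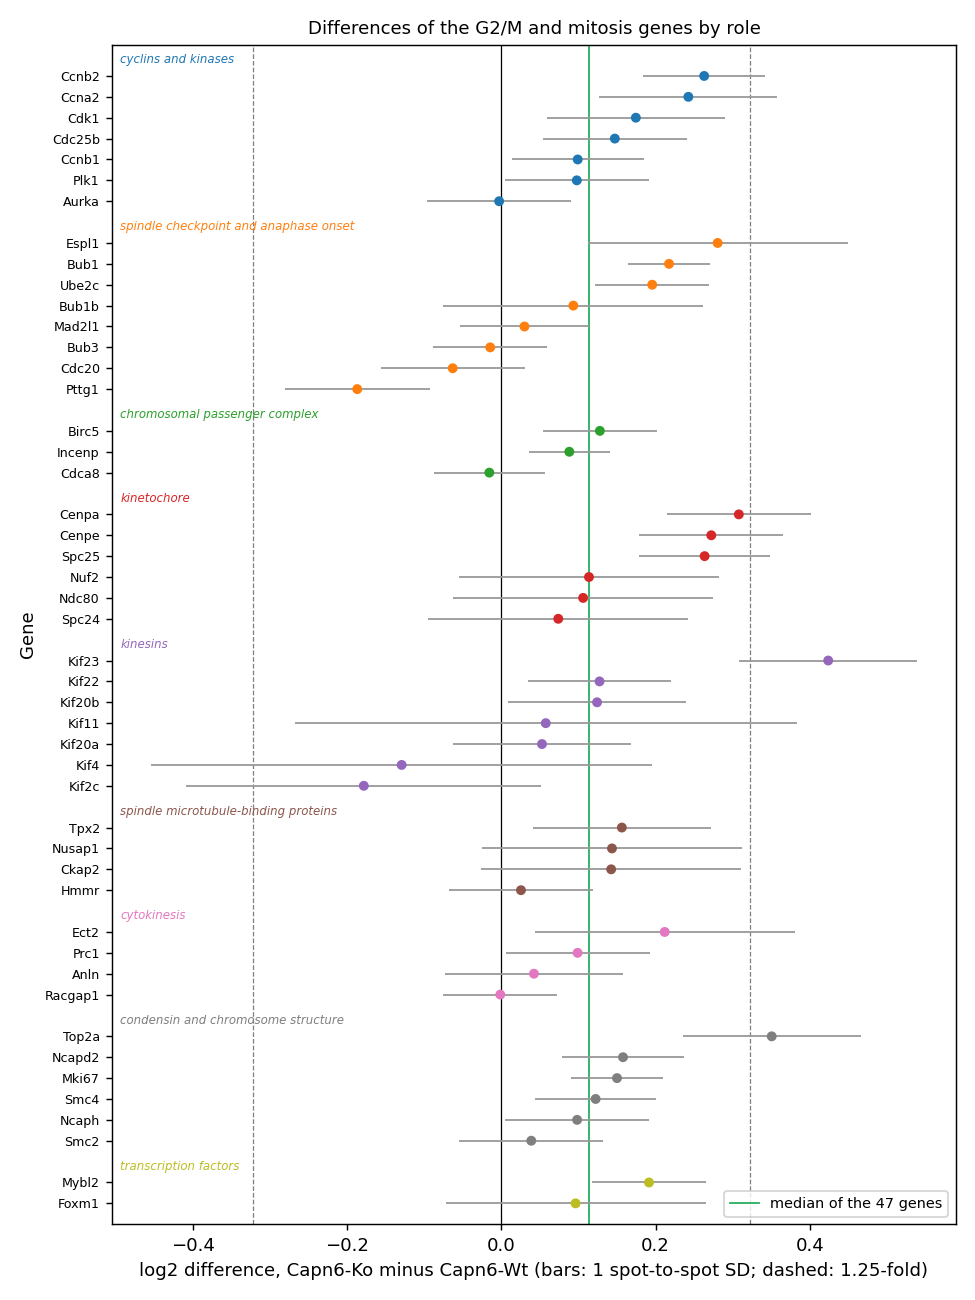
Log2 difference of each measured gene (horizontal axis, Capn6-Ko minus Capn6-Wt) by role (vertical axis), with bars of 1 spot-to-spot SD, dashed lines at the size of 25% higher and 20% lower, and a green line at the median of the 47 genes. Kif23 (0.42) and Top2a (0.35) lie beyond the upper dashed line, and 8 genes lie below 0.

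Proteins that bind and organise spindle microtubules were above 0 in all 4 measured genes, with a median of 0.14. That median was 0.059 after the background correction with an offset, 0.084 with no filter on dim probes and 0.026 with only probes brighter than the median, which left Hmmr alone. Tpx2, which activates Aurora A on the spindle, had 344 in Capn6-Ko and 313 in Capn6-Wt, a difference of 0.16 ± 0.12. A second Tpx2 probe, well above background in Capn6-Wt only, read 12.9 in Capn6-Ko and 25.8 in Capn6-Wt, and with it the gene stood at -0.41. Nusap1 had 160.3 in Capn6-Ko and 147 in Capn6-Wt, a difference of 0.14 ± 0.17, and Ckap2 was at 0.14 ± 0.17. Hmmr, the brightest of the 4, had 619.8 in Capn6-Ko and 616.6 in Capn6-Wt, a difference of 0.026 ± 0.093.

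Cytokinesis genes were nearer to 0, with 3 of 4 above it and a median of 0.071. Ect2, the exchange factor that activates RhoA at the cleavage furrow, had 156 in Capn6-Ko and 137 in Capn6-Wt, a difference of 0.21 ± 0.17. Prc1, which bundles midzone microtubules, was at 0.099 ± 0.093, with 903.9 in Capn6-Ko and 854.8 in Capn6-Wt, and the ring scaffold Anln was at 0.042 ± 0.12. Racgap1 is the partner of Kif23 in centralspindlin, and its mean was -0.0013 ± 0.074, from probes with 398 in Capn6-Ko and 418 in Capn6-Wt (-0.054) and with 748 and 731 (0.051). The 2 subunits of that complex therefore stood at 0.42 and -0.0013, and at 0.26 and 0.019 after the background correction with an offset.

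Condensin and chromosome structure genes were above 0 in all 6 measured genes, with a median of 0.14. Top2a, the topoisomerase that untangles sister chromatids, had 364 in Capn6-Ko and 289 in Capn6-Wt, a difference of 0.35 ± 0.12 or 1.28-fold, which was 0.25 after the background correction with an offset. Of the condensin genes, Ncapd2 had 1281 in Capn6-Ko and 1163 in Capn6-Wt, a difference of 0.16 ± 0.079. Smc4 was at 0.12 ± 0.079, Ncaph at 0.098 ± 0.093 and Smc2, with 829 in Capn6-Ko and 817 in Capn6-Wt, at 0.039 ± 0.093, so that these 4 subunits shared the same sign. Ncapg was not well above background, with 11.7 in Capn6-Ko and 11.6 in Capn6-Wt. Mki67, the antigen Ki-67 used to stain cycling cells, had probe signals of 2433 and 1906 in Capn6-Ko against 2067 and 1869 in Capn6-Wt. Those are differences of 0.25 and 0.047, with a mean of 0.15 ± 0.060.

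The 2 transcription factor genes of the set were above 0, Foxm1 by less than 1 spot SD. Whether they act on the other genes in these cells was not tested. Mybl2, or B-Myb, was at 0.19 ± 0.074, from a probe with 555 in Capn6-Ko and 533 in Capn6-Wt (0.078) and a dimmer one with 179.9 and 147 (0.31). Foxm1 had 152 in Capn6-Ko and 144 in Capn6-Wt, a difference of 0.096 ± 0.17.

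Other genes of the division cycle were described from lists of their own. Of all measured genes 47.8% were above 0, 2.64% were higher by at least 25% and 5.53% were lower by at least 20%. Of 67 measured further mitosis genes 46 were above 0 (68.7%), 7 were higher by at least 25% and 2 lower by at least 20%, with a median of 0.063. Highest were the centromere gene Cenpp (0.48 ± 0.17), the kinase gene Mastl (0.43 ± 0.33) and the spindle pole gene Aspm (0.39 ± 0.17). Lowest were Troap (-0.72 ± 0.33), Gtse1 (-0.36 ± 0.17) and Psrc1 (-0.31 ± 0.17). DNA replication genes were above 0 in 32 of 41 (78.0%), with 2 higher by at least 25% and a median of 0.062. Their highest members were the nucleotide enzyme gene Tyms (0.37 ± 0.17), the licensing gene Cdc6 (0.37 ± 0.18) and Uhrf1 (0.31 ± 0.079), and the lowest were the ligase gene Lig1 (-0.22 ± 0.083), Chaf1a (-0.15 ± 0.12) and Pola1 (-0.082 ± 0.12).

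The anaphase-promoting complex had the brighter genes, with 11 of 15 measured genes above the median level of all genes, where 16 of the 47 mitotic genes were. Of the 15 genes 6 were above 0 (40%), where 47.8% of all measured genes were, and their median difference was -0.014. Their median log2 level was 3.11, in the brightest of the 4 bands of level. Only 2 mitotic genes lie in that band, with 1 above 0 and a median of 0.037. The 2 lists were therefore not compared at equal level. The median of the complex was 0.051 when arrays were centred on their medians, which moved the median of all genes to 0.059. After the background correction with an offset it was 0.0099, where that of all genes was 0.00096. Its values ran from Anapc16 (-0.054), Cdc16 (-0.045) and Anapc13 (-0.043) to Anapc15 (0.074), Anapc7 (0.090) and the activator Fzr1 (0.15 ± 0.056). TTTGAA stood near the start in none of the 18 promoter windows of this list and in 2 of 39 (5.13%) of the replication genes. Both are near the share of all windows, 4.94%. In the further mitosis genes it stood there in 25 of 68 (36.8%). Whether the motif bears on the differences was not tested. Cohesin genes were above 0 in 9 of 12 (75%), where 47.8% of all measured genes were, with a median of 0.028. They ran from Pds5a (-0.22 ± 0.093), Wapl (-0.0019) and Stag1 (-0.00013) to Smc3 (0.041), Smc1a (0.051) and Mau2 (0.11 ± 0.12). Differences between these lists were not tested.

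Regulators upstream of the set gave unlike values. Of 18 DREAM, Rb and E2F genes 14 were above 0, where 47.8% of all measured genes were, with a median of 0.026. The highest were E2f8 (0.40 ± 0.093), E2f7 (0.31 ± 0.18), both repressors of E2F target genes, and Tfdp2 (0.29 ± 0.12). The lowest were Rbl2 (-0.099 ± 0.12), Rbl1 (-0.089 ± 0.096) and Lin52 (-0.073 ± 0.12). Among G1 cyclins and CDK inhibitors 8 of 14 were above 0, with a median of 0.047, which was -0.020 with only probes brighter than the median. Higher by at least 25% was 1 gene, Cdk6, where 2.64% of all measured genes were, and 3 were lower by at least 20%, where 5.53% were. Those 3 were the cyclin gene Ccnd2, with 428 in Capn6-Ko and 615 in Capn6-Wt (-0.51 ± 0.093), and the inhibitor genes Cdkn2b, with 48.6 and 69.6 (-0.50 ± 0.17), and Cdkn1c, with 31542 and 41041 (-0.36 ± 0.083). Highest in this list were Cdk6 (0.37 ± 0.33), Ccnd1 (0.21 ± 0.079) and Cdkn2d (0.12 ± 0.085).

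Markers of several cell types were described beside the mitotic genes. Of all measured genes 47.8% were higher in Capn6-Ko, and counts over lists this short were not tested. The stromal fibroblast markers were lower in 12 of 13, from Tagln (-0.61 ± 0.083) to Thy1 (0.17 ± 0.33), and their summed level, in units of the 75th percentile of each array, was 69.1 in Capn6-Ko and 100.2 in Capn6-Wt. Only Lum of this list was not well above background. The macrophage markers ran from Mertk (-0.034 ± 0.085) to Cx3cr1 (0.59 ± 0.059), with a summed level of 596 in Capn6-Ko and 576 in Capn6-Wt. Megakaryocyte markers, of cells that replicate DNA without dividing, were higher in 8 of 10, from Gp1bb (-0.15 ± 0.17) to Gp6 (0.47 ± 0.17), with 59.4 in Capn6-Ko and 56.9 in Capn6-Wt. The 5 measured stem and progenitor markers were higher in Capn6-Ko, from Meis1 (0.041 ± 0.12) to Gfi1b (0.28 ± 0.17), with 22.3 in Capn6-Ko and 19.5 in Capn6-Wt, while Flt3, Gata2 and Myb were not well above background.

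Of the other lists, 3 erythroid markers were measured and all were lower, from Hbb-bt (-0.40 ± 0.33) to Hba-a1 (-0.23 ± 0.17), with a summed level of 2.25 in Capn6-Ko and 2.70 in Capn6-Wt and with Slc4a1 not well above background. Granulocyte markers were higher in 4 of 8, near the 47.8% of all measured genes. They ran from Ctsg (-0.21 ± 0.33) to Ltf (0.33 ± 0.17), with 22.9 in Capn6-Ko and 22.7 in Capn6-Wt. B cell markers were higher in 1 of 4, from Ms4a1 (-0.48 ± 0.33) to Cd79b (0.18 ± 0.12), with 0.976 in Capn6-Ko and 0.968 in Capn6-Wt and with Cd79a at background on both arrays. T and NK cell markers were higher in 1 of 4, from Cd3e (-0.11 ± 0.093) to Nkg7 (0.083 ± 0.085), with 9.0 in Capn6-Ko and 8.79 in Capn6-Wt. Of the mast cell markers only Tpsb2 (-0.080 ± 0.093) and Kit (-0.050 ± 0.12) were measured, with 1.34 in Capn6-Ko and 1.41 in Capn6-Wt. The part of these cell types in the values of the mitotic genes was not tested.

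**Figure D4:**
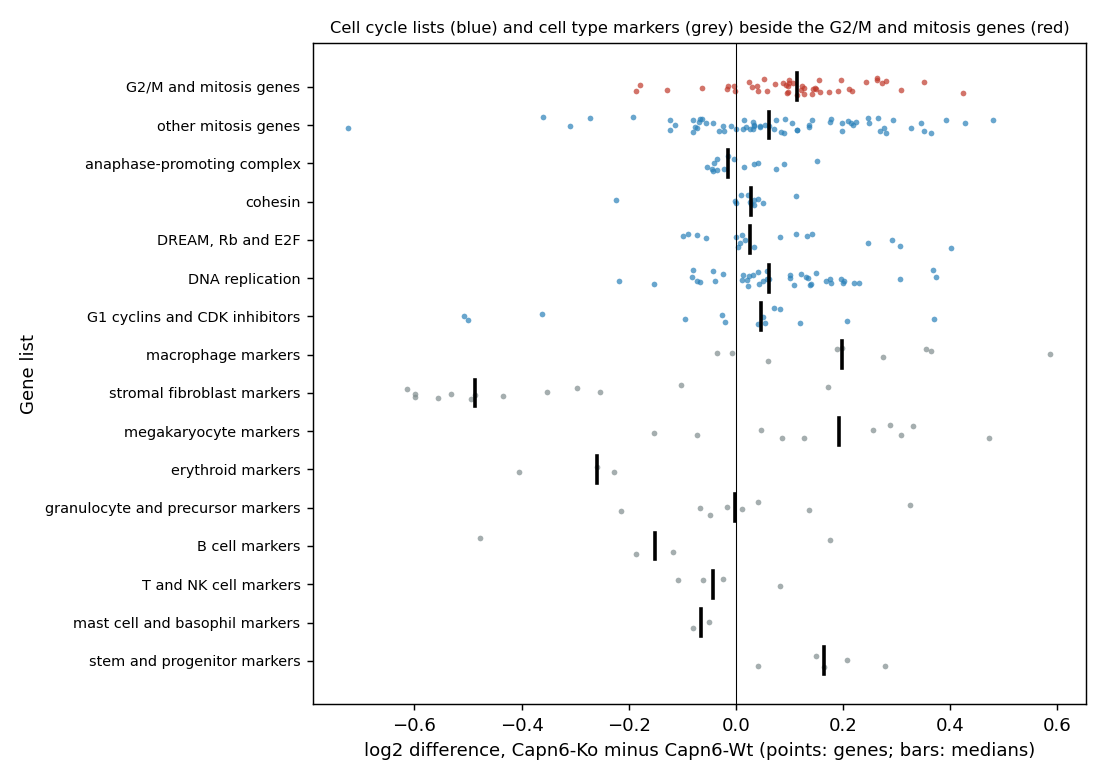
Log2 difference of each measured gene (points, Capn6-Ko minus Capn6-Wt) and the median of each list (bars), for the mitotic genes (red), other cell cycle lists (blue) and cell type markers (grey). The mitotic genes centre on 0.11, the stromal markers on -0.49 and the anaphase-promoting complex on -0.014.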

How the data were processed

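RNA of 1 pooled culture per group was hybridised to 1-colour Agilent arrays. Per the file headers, the authors made the scanner files with Agilent Feature Extraction 10.10.1.1 on a design annotated on mm9, and the deposited column used here is the processed signal, an intensity on a linear scale that is background-subtracted within each array. Flags of 0 or 1 per spot, another kind of deposited value per the file headers, gave outliers and spots well above background. The authors' deposited value table, also an intensity, is the processed signal multiplied by 2.42 on the Capn6-Ko array and by 2.39 on the Capn6-Wt array, has column medians of 50.7 and 53.0 and is not centred. Both arrays lay on 1 slide and were scanned together.

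Control spots and outlier spots (136 on the Capn6-Ko array, 161 on the Capn6-Wt array) were left out. No spot was saturated. Log2 signals were taken relative to the 75th percentile of each array, spots of a probe were averaged, and a probe was measured when, on each array, over 50% of its spots passed the flag for being well above background. Accessions named 27226 of 55678 probes through a RefSeq table of GRCm38.p6, used for names only. A gene's difference is the mean over its measured probes, Capn6-Ko minus Capn6-Wt, and a gene's signal is the geometric mean over them. Spot SDs came from 263 probes with at least 5 spots per array, in 8 bins of level. The averaging was tested on simulated data. Python 3.11.15, numpy 2.4.6, pandas 2.3.3, R 4.3.3 and limma 3.58.1 were used, limma for the normexp and quantile alternatives only. Normexp, with an offset of 50, used the median spot signal because the files hold no mean signal.

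The members, the lists and the size of 25% higher were chosen with earlier results of these data known. The rule for named genes was every gene of the set, with the signals of at least the 2 highest and the lowest of each role, the 3 highest and 3 lowest of each cell cycle list, and the highest and lowest of each marker list. The size of 2 spot SDs was added after the data were seen. A planned search of proteins for the KEN motif was not run, and the proteins were not analysed here.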

Additional observations from a re-analysis of the deposited data

Results flagged for a closer look

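Probes of 3 measured genes were left out of the gene values because only 1 of their readings passed as well above background. A second Cdk1 probe read 25.2 on the Capn6-Ko array and 7.51 on the Capn6-Wt array. A second Foxm1 probe read 21.8 on the Capn6-Ko array and 11.7 on the Capn6-Wt array. These 2 passed in Capn6-Ko only. A second Tpx2 probe ran the other way, with 12.9 on the Capn6-Ko array and 25.8 on the Capn6-Wt array, and passed in Capn6-Wt only. All 3 are dim single spots, near the dimmest readings that passed, 14 for Capn6-Ko and 16.6 for Capn6-Wt.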

How the results depend on the processing

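The median of the mitotic genes stayed above 0 under all 9 other ways of processing and without Foxm1 and Mybl2 (0.114), from 0.0916 (normexp) to 0.178 (arrays centred on their medians), and 39 to 44 genes were above 0 (44 of 54 with no filter on dim probes), except with only probes brighter than the median, where 29 genes were left and 24 were above 0. Centring on the medians moved the median of all genes to 0.059, and 70.8% of all genes were then above 0. That share was 39.5% with no filter on dim probes and lay from 42.9% to 50.5% under the other ways. The number of mitotic genes higher by at least 25% was 7 under centring on the medians and 9 with no filter on dim probes. It was 0 with normexp and 0 with only the brighter probes. The share of all genes past this size under those ways is not given, so these counts stand without a background. The number was 19 at a size of 1.1-fold, 0 at 1.5-fold and 12 at 2 spot SDs. The number lower by at least 20% was 1 with the brightest probe of a gene (Kif2c, -0.718) and 1 with no filter (Tpx2, -0.415), and 2 at 1.1-fold. With only the brighter probes the median of the checkpoint genes turned to -0.0144, that of the G1 cyclins and CDK inhibitors to -0.0196, and that of the spindle microtubule-binding proteins fell to 0.0255, from Hmmr alone. The median of the anaphase-promoting complex turned to 0.0506 on median centring and 0.00994 with normexp. With no filter the median of Foxm1 and Mybl2 was 0.349. The normexp offset shrinks dim ratios by construction, and the other causes were not tested. No paired analysis was possible because each group is 1 array.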
